A study of Mus musculus with 6 samples.

Results

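The 7 transcription factors that together specify midbrain dopaminergic neurons, Nr4a2, Pitx3, En1, En2, Foxa1, Foxa2 and Otx2, were examined in sorted cells of the ventral mesencephalon of E12.5 mouse embryos. Their members on the array were every probe set whose gene symbol in the platform annotation was exactly one of these 7 names, which gave 12 of 45037 probe sets other than controls. Nr4a2 had 6 probe sets and each other factor had 1. There were 3 arrays in each of 2 groups. One was of GFP-positive cells from Ngn2-GFP embryos of strain CD1/129, labelled midbrain dopaminergic progenitors and called positive here. Their reporter follows Neurog2, a proneural gene. The other was of GFP-negative cells of Lmx1a-GFP embryos of strain C57BL/6, labelled a non-dopaminergic progenitor population and called negative here, in which GFP reports Lmx1a, so that cells with the reporter had been left out. Reporter line, strain and sort gate therefore coincided with the group on every array and cannot be told apart. The replicates are described as biological, and pooling of embryos is not given in the sources used here.

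In the embryonic midbrain, the forkhead factors Foxa1 and Foxa2 act in floor plate progenitors, where they open chromatin and work with Lmx1a and Lmx1b to start the dopaminergic programme. Otx2 sets the identity of forebrain and midbrain and restrains ventrolateral fates, and the engrailed proteins En1 and En2, homeodomain factors of the midbrain and first hindbrain segment, are needed for the survival of dopaminergic neurons. The orphan nuclear receptor Nr4a2 (Nurr1) and the paired-like homeodomain factor Pitx3 come later, in cells that have left or are leaving the cell cycle, and activate genes of dopamine synthesis and transport.

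Start-site sequence of the 4 factors whose level differed between the populations is shown first, since these are the promoters the comparisons below concern. Each line holds 250 bases before and 50 bases after an annotated start, from RefSeq on GRCm38.p6, written 5′ to 3′ on the strand of the gene. For Otx2, which has 4 such windows, the most upstream is given, and the Foxa1 window lies inside the annotated span of the gene. Capitals mark a match to a motif.
Nr4a2 chr2:57123954-57124253 (-): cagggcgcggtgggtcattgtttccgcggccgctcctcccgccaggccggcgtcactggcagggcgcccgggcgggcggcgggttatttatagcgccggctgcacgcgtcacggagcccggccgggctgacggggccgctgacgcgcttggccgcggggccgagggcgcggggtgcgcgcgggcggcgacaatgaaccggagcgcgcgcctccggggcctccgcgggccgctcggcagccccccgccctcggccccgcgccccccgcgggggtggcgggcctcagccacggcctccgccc
En1 chr1:120602237-120602536 (+): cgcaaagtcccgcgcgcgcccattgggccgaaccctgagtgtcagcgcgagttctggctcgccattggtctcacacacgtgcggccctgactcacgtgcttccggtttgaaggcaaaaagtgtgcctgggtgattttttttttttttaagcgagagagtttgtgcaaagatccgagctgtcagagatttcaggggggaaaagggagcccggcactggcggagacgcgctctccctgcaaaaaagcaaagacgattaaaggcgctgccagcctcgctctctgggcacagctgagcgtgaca
Foxa1 chr12:57546062-57546361 (-): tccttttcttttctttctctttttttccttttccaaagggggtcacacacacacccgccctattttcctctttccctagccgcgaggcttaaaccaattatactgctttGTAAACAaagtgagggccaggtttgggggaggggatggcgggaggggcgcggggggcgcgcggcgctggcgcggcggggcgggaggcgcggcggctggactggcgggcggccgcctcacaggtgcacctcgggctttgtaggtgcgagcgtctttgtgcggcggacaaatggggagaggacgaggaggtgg
Otx2 chr14:48667595-48667894 (-): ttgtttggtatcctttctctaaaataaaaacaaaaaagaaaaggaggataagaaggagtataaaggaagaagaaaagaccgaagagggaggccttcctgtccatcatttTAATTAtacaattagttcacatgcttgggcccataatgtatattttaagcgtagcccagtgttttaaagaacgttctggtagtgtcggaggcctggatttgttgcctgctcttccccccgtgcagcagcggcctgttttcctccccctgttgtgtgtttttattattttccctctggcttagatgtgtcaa
Both strands were searched for 5 motifs in the 11 windows that matched 6 of the 7 factors. These were AAAGGTCA, the NBRE element bound by Nr4a2 as a monomer, AGGTCA, the shorter core shared by many nuclear receptors and contained in the NBRE, TGTTTAC for forkhead proteins, TAATCC for bicoid-class homeodomains such as those of Otx2 and Pitx3, and TAATTA for other homeodomains. The Foxa1 window held 1 forkhead match, read on the reverse strand, so that the capitals spell GTAAACA, 141 bases upstream of the start, a motif found in 3.65% of 32851 windows of this length. The window of Otx2 shown here held 1 TAATTA match, a motif found in 5.29% of windows. A further Otx2 window, at chr14:48665060-48665359, held 3 TAATTA matches and 1 TAATCC match, the last a motif of 7.06% of windows. The windows of Nr4a2, En1, Pitx3 and Foxa2 held none of the 5 motifs, of which NBRE occurs in 1.51% and AGGTCA in 16.3% of windows. The Nr4a2 window was 81.7% G and C with 52 CG dinucleotides, against medians of 52.7% and 7 over all windows, and that of Otx2 shown here was 41.7% G and C with 6 CG dinucleotides. These matches describe letters in short windows and are not binding sites.

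The deposited signals are linear, with the same trimmed mean of 100 on every array, so a difference in total RNA content between the populations is not measured. Median signal lay between 18.1 and 25.5. Hybridization spike-in probe sets averaged 2293 and 2352 on positive replicates 1 and 2, while positive replicate 3 averaged 5018 and the negative arrays 4254 to 6560. These sides are treated as a spike-in batch. The lower side has no negative array and so gives no comparison, and the higher side sets positive replicate 3 against the 3 negative arrays. With that batch as a block in the model (the spike-in block), every fold change below comes from that lone positive array, whose spread is taken to be that of the others. The negative cells carried signal of other cell types. All 5 tested erythroid markers were lower in positive cells (of 7 listed, with a summed signal of 304 to 620 in positive cells, against 7507 to 14918 in negative cells), as were 4 of 5 tested microglia and macrophage markers (of 8 listed, 21.8 to 38.9, against 370 to 771 in negative cells) and 5 of 7 midbrain GABAergic markers (2442 to 2666, against 5739 to 6023 in negative cells). Among red nucleus markers 1 of 5 tested and among oculomotor markers 1 of 2 tested were lower in positive cells. The red nucleus markers summed to 2672 to 4179 in positive cells, against 3405 to 4230 in negative cells. These ranges overlap, so the positive cells carried signal of this list too. None of 6 endothelial markers passed the filter for dim signals. Of the tested markers, 2 erythroid, 4 microglia and macrophage and 1 oculomotor were under the filter level on all 3 positive arrays. They entered through the negative arrays alone and could only be called lower. Without the filter the erythroid, microglia and macrophage, and GABAergic counts were 3, 2 and 1. Without the trend in limma these counts were 4, 3 and 1, and the red nucleus and oculomotor counts were 0 in both settings. Of 4 tested markers of dopaminergic neurons, 3 were higher in positive cells, where the 5 listed summed to 1448 to 1761, against 687 to 765 in negative cells, and Aldh1a1 did not pass the filter. Slc6a3, under the filter level on all 3 negative arrays, could only be called higher. The count of 3 was 1 without positive replicate 1 and 2 or 3 without another array, and it was 0 without the filter, without the trend in limma and with the spike-in block. The part of these cell types in the results below was not tested. In such bulk samples, fewer cells of a type and less RNA per cell cannot be told apart.

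Among the factors, 3 rose in positive cells, Nr4a2, En1 and Foxa1, and Otx2 fell. En2 and Foxa2 differed by less and did not pass the test, and Pitx3 was too dim to be tested. A gene was tested through its brightest probe set if at least 3 arrays read that set above their own 40th percentile, and it was called at an adjusted p under 0.05 (limma, Benjamini-Hochberg over 12044 genes). Of the 6 tested factors 3 were called higher, against 0.423% of all tested genes, and 1 was called lower, against 0.639%. In both directions together, 1.06% of tested genes were called. The median log2 difference, positive minus negative, was 0.69 over the 6 factors and 0.03 over all tested genes. The 3 positive values lay wholly above or below the 3 negative ones for 5 of the 6 factors, as they did for 15.5% of all tested genes. With every probe set as its own row, 5 of 11 tested probe sets of the factors were called higher, against 0.187% of 27738, and 1 was called lower, against 0.35%, which makes 6 in either direction, against 0.537%. The groups did not overlap in 9 of these 11, as in 13.9% of all. Of the 12 probe sets, 9 exceeded the 40th percentile on all 6 arrays, in both populations.

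**Figure D1:**
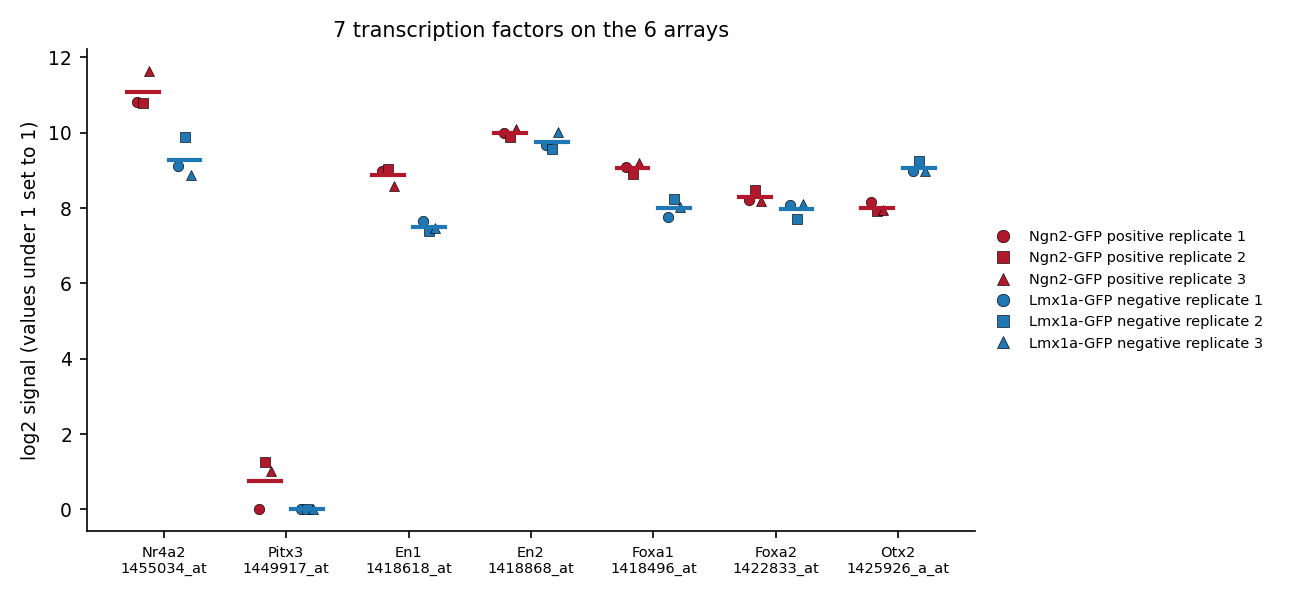
Log2 signal of the brightest probe set of each factor on the 6 arrays, with signals under 1 set to 1. Points are arrays, bars are group means of 3 arrays, positive left and negative right for each factor. Nr4a2, En1 and Foxa1 sit higher and Otx2 lower on all 3 positive arrays, En2 overlaps between the groups, and Pitx3 lies at the bottom of the scale.

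Nr4a2, on chromosome 2 (chr2:57106830-57124003, GRCm38.p6), had the largest difference of the tested factors. Its brightest probe set, 1455034_at, read 1816, 1780 and 3178 in positive cells, against 552, 938 and 469 in negative cells. The lowest positive array was above the highest negative one, and positive replicate 3 stood above the other positive arrays. The log2 difference was 1.80 (SE 0.30, n = 3 arrays per group, adjusted p = 0.00932), a 3.48-fold excess in positive cells with a 95% interval of 1.16 to 2.44 on the log2 scale.

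The other bright probe sets of Nr4a2 gave differences of the same sign and similar or larger size. Probe set 1447863_s_at read 2092, 2166 and 2680 in positive cells and 655, 603 and 465 in negative cells, a difference of 2.02 (SE 0.21, adjusted p = 0.000356 over probe sets). Probe set 1450749_a_at, on which positive replicate 3 was the lowest of its group, read 1300, 1163 and 1093 in positive cells and 305, 183 and 148 in negative cells, a difference of 2.55 (SE 0.26, adjusted p = 0.000244) or 5.85-fold. Probe set 1450750_a_at read 1369, 1393 and 2137 in positive cells and 497, 559 and 326 in negative cells, a difference of 1.83 (SE 0.26, adjusted p = 0.00451). In all 4 bright probe sets the groups were separate on every array, and whether the sizes differ between probe sets was not tested. Within their arrays, these sets ranked at percentiles 96.9 to 99.5 in positive cells and 81.2 to 96.4 in negative cells.

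The remaining probe sets of Nr4a2 lay near the filter level, which was between 10.2 and 15.8 on the 6 arrays. Probe set 1433423_at read 28.1, 36.2 and 40.5 in positive cells and 17.0, 20.8 and 1.91 in negative cells, and probe set 1433422_at read 11.5, 15.0 and 3.60 in positive cells and 32.2, 4.93 and 13.0 in negative cells. Their differences of 1.98 (SE 0.82, adjusted p = 0.476) and -0.58 (SE 0.92, adjusted p = 0.875) did not pass. The first was 0.88 without negative replicate 3 and 0.59 with 32 added to each signal, and the sign of the second turned without positive replicate 3 (0.04) and without negative replicate 1 (0.09).

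The gene-level call of Nr4a2 rested on its brightest probe set, which had the largest standard error of the 4. Without negative replicate 1 or 3 its difference was 1.71 or 1.59 and did not pass (adjusted p = 0.0537 and 0.0598). The 3 other bright probe sets passed without any 1 array, at 1.87 to 2.12 for 1447863_s_at, 2.32 to 2.85 for 1450749_a_at and 1.60 to 1.99 for 1450750_a_at. With the spike-in block all 4 passed, at 2.24, 2.44, 2.25 and 2.35 for 1447863_s_at, 1450749_a_at, 1450750_a_at and 1455034_at (adjusted p = 0.00208, 0.0178, 0.00855 and 0.0115).

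**Figure D2:**
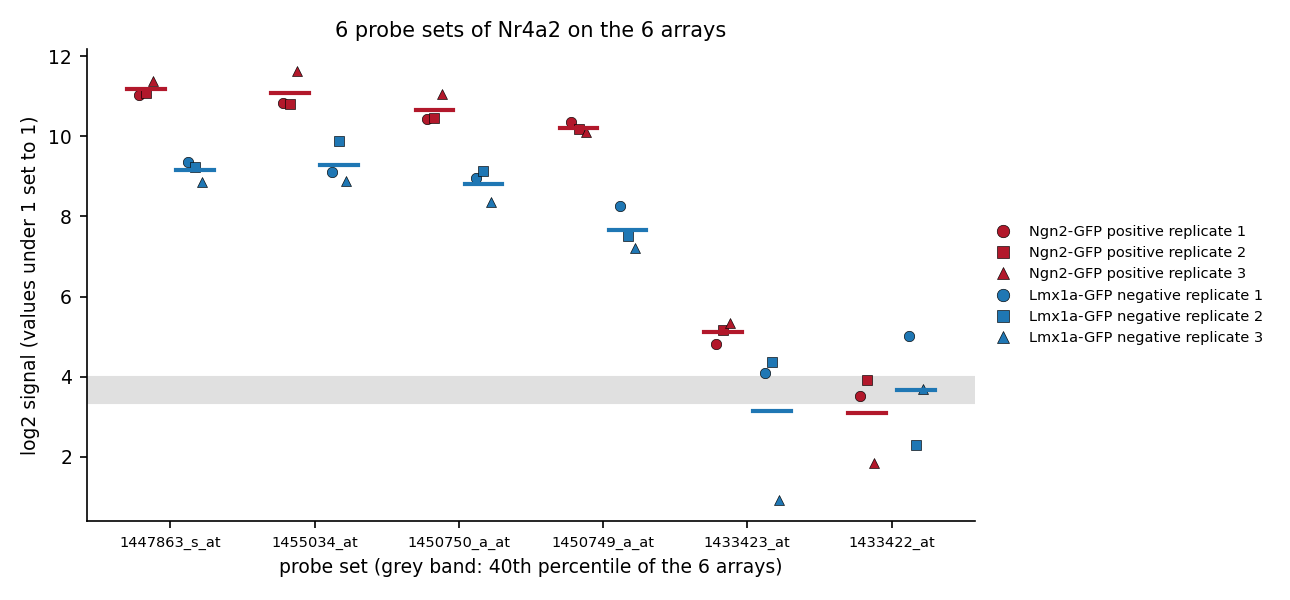
Log2 signal of the 6 Nr4a2 probe sets on the 6 arrays, with signals under 1 set to 1. Points are arrays, bars are group means of 3 arrays, positive left and negative right, and the grey band spans the 40th percentiles of the arrays. The groups are separate in the 4 bright probe sets, with differences of 1.80 to 2.55, and the 2 dim sets on the right lie in or near the band.

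Pitx3 (chr19:46135281-46148325), which activates Th and is required for neurons of the substantia nigra, gave no usable measurement. Its probe set 1449917_at read 1.01, 2.38 and 2.04 in positive cells and 0.468, 0.414 and 0.799 in negative cells. These values rank at percentiles 7.32 to 15.9 of the positive arrays and 2.03 to 9.26 of the negative arrays, under the filter on all 6. The 3 positive values lay above the negative ones, but all were close to the floor of 1 used here, so no fold is given.

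Of the engrailed pair, En1 differed between the populations and En2 did not pass the test. En1 (chr1:120602487-120607991) read 504, 529 and 382 in positive cells, against 202, 169 and 177 in negative cells. All positive arrays were above all negative ones, with positive replicate 3 the lowest of its group. The difference was 1.36 (SE 0.21, adjusted p = 0.00732), or 2.57-fold. En2 (chr5:28165696-28172190) read 1019, 943 and 1104 in positive cells, against 814, 765 and 1031 in negative cells. Negative replicate 3 exceeded 2 of the positive arrays, and the difference was 0.24 (SE 0.20, adjusted p = 0.686) with a 95% interval of -0.20 to 0.68.

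Whether the engrailed genes changed unequally was tested on the log2 signal of En1 minus that of En2 on each array. This quantity averaged -1.13 ± 0.36 in positive cells and -2.25 ± 0.27 in negative cells (SD, n = 3 each), a difference of 1.12. The averages carry probe effects and only their difference is read. The groups were separate, and an exact two-sided permutation test gave p = 0.1, the smallest that 3 against 3 arrays allow. That value is above the threshold used for calls, so the test could not decide whether the engrailed genes changed unequally. En1 did not pass without positive replicate 2 (1.27, adjusted p = 0.0573), nor with the spike-in block (1.07, adjusted p = 0.236).

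The forkhead pair showed a like arrangement, with Foxa1 higher in positive cells and Foxa2 not past the test. Foxa1 (chr12:57540628-57548029) read 545, 475 and 588 in positive cells, against 215, 302 and 263 in negative cells. The groups were separate, and the difference was 1.05 (SE 0.21, adjusted p = 0.0313), or 2.07-fold. Foxa2 (chr2:148042877-148046969) read 299, 358 and 291 in positive cells, against 271, 210 and 278 in negative cells. Its groups were also separate, by a narrow margin, and the difference was 0.33 (SE 0.21, adjusted p = 0.597) with a 95% interval of -0.13 to 0.79.

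Foxa1 minus Foxa2 averaged 0.76 ± 0.32 on the log2 scale in positive cells and 0.04 ± 0.44 in negative cells (SD, n = 3 each). The groups overlapped, and the exact two-sided permutation test gave p = 0.2 for the difference of 0.72. The smallest p that 3 against 3 arrays allow is 0.1, above the threshold used for calls. The test therefore could not decide whether this pair changed unequally. The call of Foxa1 depended on single arrays. It did not pass among probe sets (adjusted p = 0.0552), without positive replicate 1 or 2 (1.04 and 1.14, adjusted p = 0.15 and 0.0928), without negative replicate 1 or 3 (0.92 and 1.07, adjusted p = 0.127 and 0.0832), or with the spike-in block (1.19, adjusted p = 0.208).

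Otx2 (chr14:48656781-48667644) was the 1 factor lower in positive cells. Its probe set 1425926_a_at read 287, 243 and 249 in positive cells, against 509, 614 and 503 in negative cells. The positive arrays lay close together and all below the negative ones. The difference was -1.06 (SE 0.20, adjusted p = 0.021), a 2.09-fold lower signal, and with each probe set as its own row it also passed (adjusted p = 0.0398). Without positive replicate 1 or 2 it was -1.14 or -1.01 and did not pass (adjusted p = 0.0665 and 0.145). The same held without negative replicates 1, 2 or 3 (-1.10, -0.97 and -1.11, adjusted p = 0.0608, 0.103 and 0.0527) and with the spike-in block (-1.12, adjusted p = 0.215). The call was also lost under median centring (-1.09, adjusted p = 0.121). The part of the GABAergic markers, of which 5 of 7 were lower in positive cells too (1 without the filter, 1 without the trend), in the Otx2 difference was not tested.

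**Figure D3:**
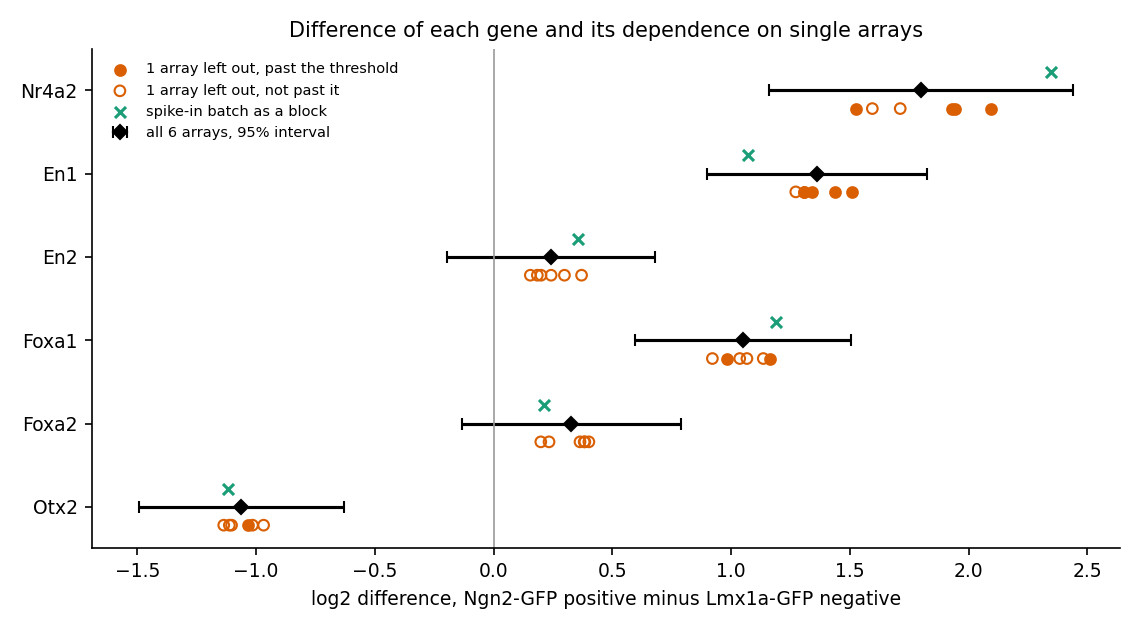
Log2 difference, positive minus negative, of the 6 tested factors. Diamonds with bars are the fit on all 6 arrays with its 95% interval, circles below are the 6 fits with 1 array left out (filled where past the threshold) and crosses are the fit with the spike-in block. Every value keeps its sign, while calls are lost without 1 array for Nr4a2, En1, Foxa1 and Otx2.

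Genes around the factors were described by 6 lists that hold none of the 7. The lists were chosen with earlier results of these data known. Their counts stand beside 0.423% of all tested genes called higher and 0.639% called lower. Of 12 tested genes reported downstream of Nr4a2 or Pitx3, 7 were higher in positive cells and none lower, with a median log2 difference of 1.32. Among them was Th, the rate-limiting enzyme of dopamine synthesis, which read 188, 214 and 118 in positive cells, against 12.2, 1.44 and 10.5 in negative cells (adjusted p = 0.00414). Negative replicate 3 alone exceeded the filter level there, and by little, so the fitted log2 difference of Th (4.89, SE 0.69) has no firm size. It was 3.90 without negative replicate 2 and 2.34 with 32 added to each signal. Others were Slc6a3, the dopamine transporter, at least 5.33-fold higher (adjusted p = 0.0132), and Ret, the GDNF receptor tyrosine kinase, at least 3.68-fold higher (adjusted p = 0.0352). Slc6a3 and Ret were under the filter level on all 3 negative arrays, so their bound sets the mean positive signal against that level. Both genes passed the filter through the positive arrays alone and could only be called higher. This list also holds all 5 dopaminergic neuron markers given above. The calls of Th, Slc6a3 and Slc18a2 are therefore in both counts, which are not separate observations. The count of 7 was 2, 2 and 5 without positive replicates 1, 2 and 3, it was 4, 5 and 3 without negative replicates 1, 2 and 3, and with the spike-in block it was 0. Without the filter the count was 0, and without the trend in limma it was 1. Th missed the threshold in both settings (adjusted p = 0.107 and 0.0772), as did Slc6a3 (adjusted p = 0.139 and 0.0787). Ret passed in none of the 6 fits without an array (adjusted p = 0.0505 to 0.257). Slc6a3 also missed the threshold without positive replicates 1 and 3 (adjusted p = 0.113 and 0.0539).

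Among 13 other transcription factors of the dopaminergic lineage that were tested, 3 were higher in positive cells and none lower, and the median was 0.42. These were Lmx1a, at least 9.65-fold higher, whose direction was set by the sort for cells without the Lmx1a reporter, the zinc finger gene Bnc2 (4.05, SE 0.46, adjusted p = 0.000614) and Ebf2, a factor of neuronal differentiation (1.45, SE 0.22, adjusted p = 0.00525). The 3 calls were kept without any 1 array, and with the spike-in block none was kept (adjusted p = 0.121 for Lmx1a, 0.0603 for Bnc2 and 0.164 for Ebf2). All 3 also missed the threshold without the filter (adjusted p = 0.0656, 0.0592 and 0.0609), as did Ebf2 without the trend (adjusted p = 0.0835). Neurog2, which the positive reporter follows, read 706, 585 and 500 in positive cells, against 338, 388 and 334 in negative cells. Its difference of 0.75 (SE 0.21, adjusted p = 0.155 in limma) was not called.

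Of 13 tested genes reported downstream of Foxa1 and Foxa2, 3 were higher and 1 was lower in positive cells, and the median was 0.75 (0.51 where dim genes count at their bound). The higher ones were Lmx1a and Th, which other lists also hold, and the axon guidance cue Slit2 (1.46, SE 0.25, adjusted p = 0.0111). Slit2 did not pass without positive replicate 2 (adjusted p = 0.0573), without the filter (adjusted p = 0.107) or without the trend (adjusted p = 0.138). Without the filter 0 genes of this list were called higher and 1 lower, and without the trend 1 higher and 1 lower. The direction of Lmx1a was set by the sort. With no negative array above the filter level, Lmx1a could only be called higher. The lower one was Nkx2-2, a homeodomain factor of more lateral progenitors that Foxa proteins repress (-3.67, SE 0.24, adjusted p = 4.83e-06), which passed in every fit that left out 1 array and with the spike-in block. With that block the 3 higher genes did not pass.

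Genes of the isthmic organizer and midbrain territory, which set the domain where the engrailed genes and Otx2 act, were mostly not called. Of 18 tested, 1 was lower and none higher, with a median of -0.24. The lower one was Meis2, a homeodomain cofactor of the dorsal midbrain (-2.93, SE 0.35, adjusted p = 0.000895), which did not pass with the spike-in block (-2.51, adjusted p = 0.0875). Meis2 also missed the threshold without the filter (adjusted p = 0.0592). Without names in _s_at, _x_at or _a_at it was not tested, and no gene of its list was called. None of 12 tested cofactors of Nr4a2 passed (1 at an unadjusted p under 0.05 in limma), with a median of -0.23. The brightest were the histone deacetylase Hdac2 (-0.37, SE 0.27) and the RNA-binding protein Sfpq (-0.31, SE 0.24), and both signs turned under quantile normalization (0.19 and 0.28) and with the spike-in block (0.13 and 0.01). Of the close relatives of the factors, 3 were tested, none passed in limma and none had an unadjusted p under 0.05, with Pitx1 at 1.21 (SE 0.66) and Otx1 at -0.50 (SE 0.32). Single arrays moved both, Pitx1 to 0.36 without negative replicate 1 and 1.81 without negative replicate 2, and Otx1 to -0.14 without positive replicate 3 and -0.29 without negative replicate 1.

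**Figure D4:**
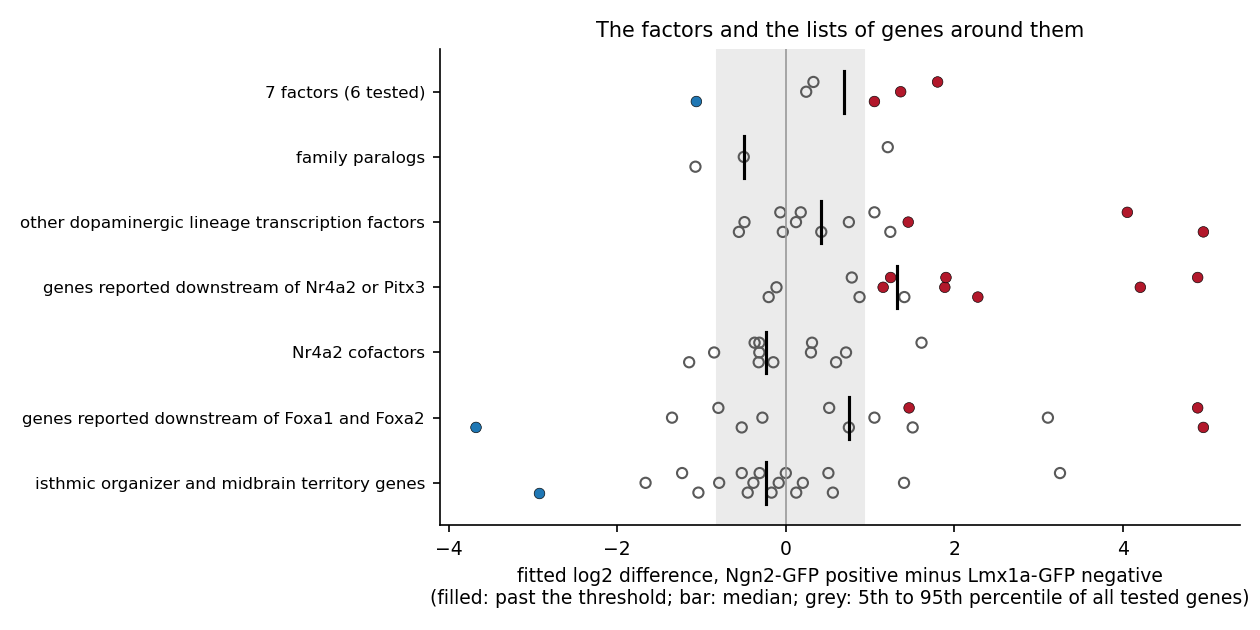
Fitted log2 difference, positive minus negative, of each tested gene of the factors (top row) and of the 6 lists. Filled points passed the threshold (red higher, blue lower), open points did not, bars are medians and the grey area spans the 5th to 95th percentile of all tested genes (-0.82 to 0.92). The values of Lmx1a, Slc6a3, Ret, Corin and Wnt1 are fitted against negative arrays that were all under the filter level, that of Spry4 against such positive arrays and that of Th against negative arrays of which 1 exceeded it, so these set no order.

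The genes whose pattern over the 6 arrays was most like that of each called factor were found by the mean absolute difference of log2 signals after each gene was centred on its own mean. The nearest of all tested genes were taken, so closeness follows from the choice. For Nr4a2 they were the kinase gene Camk1d (0.11), Minar1 (0.16) and the actin-binding protein gene Klhl1 (0.23), against a median of 0.93 over all tested genes. Camk1d (1.65, adjusted p = 0.214) and Minar1 (1.70, adjusted p = 0.204) were not called. Klhl1, which the list of genes downstream of Nr4a2 or Pitx3 also holds, differed by 1.90 (adjusted p = 0.00702) and did not pass without positive replicate 2 (adjusted p = 0.0503). For En1 they were the engulfment adaptor gene Elmo1 (0.12), Epb41l4b (0.12) and the AMPA receptor subunit gene Gria3 (0.12), against 0.71 over all genes. Elmo1 and Gria3 were called higher in positive cells, at 1.13 and 1.25 (adjusted p = 0.011 and 0.0197), and Epb41l4b was not called (1.22, adjusted p = 0.277). Without 1 array, Elmo1 passed in 3 of 6 fits and Gria3 in 1 of 6 (adjusted p up to 0.0893 and 0.169), and Elmo1 was at 0.67 (adjusted p = 0.277) without names in _s_at, _x_at or _a_at. For Foxa1 they were Slc35d1 (0.10), Cpne5 (0.11) and Eif2ak3, a kinase of the unfolded protein response (0.12), against 0.58, and none of these passed (0.90 to 1.06, adjusted p = 0.247 to 0.505). For Otx2 they were the Wnt effector gene Tcf7l2 (0.10), Tmem47 (0.11) and Tal1, a factor of GABAergic neurons and of blood cells (0.11), against 0.59. Tcf7l2, Tmem47 and Tal1 were each called lower in positive cells, at -1.15, -0.96 and -0.99 (adjusted p = 0.0111, 0.0374 and 0.0275). With 1 array left out, each passed once in 6 fits, without positive replicate 3, and adjusted p reached 0.0806, 0.212 and 0.19, and none passed under median centring (adjusted p = 0.16, 0.21 and 0.194).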

How the data were processed

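Per the labels' protocols, biotinylated cRNA was made from the total RNA of each sort, and each sample has 1 array. The authors deposited linear intensity values of 45101 probe sets. MAS5 and limma in R 2.14.2 are named in the submitters' processing notes, without roles. Gene symbols came from the platform annotation and matched the GRCm38.p6 gene table for all 7 factors. Of 45037 probe sets other than the 64 controls, 34945 had 1 symbol, 932 several and 9160 none.

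The log2 of signals, floored at 1, entered limma 3.58.1 under R 4.3.3 (two-sided, mean-variance trend, 4 residual degrees of freedom, Benjamini-Hochberg over all tested genes). A second fit held every tested probe set. Dim groups got a bound in place of a fold. With arrays left out, the filter and the choice of probe set were kept. The fit was tested on simulated data. Alternatives were quantile normalization, median centring, no filter, the 60th percentile as filter, 32 added to each signal, no trend, the mean of probe sets, leaving out names in _s_at, _x_at or _a_at, the replicate number as a block, the spike-in batch, and 1 array left out. Precision is limited by the number of arrays. The limma p-values set each group difference against the spread between these arrays, moderated over all tested genes. Members and lists were chosen with earlier results of these data known. Named genes were all members, up to 3 called genes each way or else the 2 brightest of each list, and the 3 genes most like each called member. Neurog2 was added as the gene of the positive reporter. Some listed genes are not analysed here. Motifs and figures used Python 3.11.15 and matplotlib 3.10.9.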

Additional observations from a re-analysis of the deposited data

How the results depend on the processing

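All 6 tested factors kept the sign of their difference under every alternative that gave a value. How many were called did not hold: 4 in the fit on all arrays, 2 under median centring, which lost Foxa1 and Otx2, and 1 with the spike-in block or within the batch's higher side. Without the filter, or without the trend in limma, 0 were called, although 4 kept an unadjusted p under 0.05 in both. Leaving out 1 array gave 1 to 4. The count of all genes, 128, was 19 without the filter, 42 without the trend, 34 with the spike-in block and 38 within the higher side, and 58 to 419 without 1 array. The highest of these came without positive replicate 3, when the batch and the groups are the same split. Among probe sets the count of 149, with 6 of the factors, was 36 with 2 without the filter, 56 with 0 (7 unadjusted) without the trend, and 98 with 2 without names in _s_at, _x_at or _a_at, which drops 3 bright Nr4a2 sets and the Otx2 set. It was 60 with the spike-in block and 61 within its higher side, and 76 to 705, with 3 to 6, without 1 array. Values that turned sign were those of probe set 1433422_at (0.042 without positive replicate 3, 0.089 without negative replicate 1, with -1.26 the lowest without 1 array), Hdac2 (0.19 under quantile normalization, 0.13 with the spike-in block and within its higher side) and Sfpq (0.28, 0.012 and 0.012). The spike-in block and its higher side take fold changes from the same arrays and are equal by construction, so they do not count separately. Deviations from the group means correlated at 0.14, -0.10 and 0.03 between same-numbered samples, against -0.16 to 0.12 between the others. With 3 arrays per group, these values cannot decide whether the numbers pair samples. With the replicate block 127 genes were called, 3 of them factors, Foxa1 being the one lost (adjusted p = 0.051). The causes of these shifts were not tested.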

Other observations

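The nearest tested gene on each side of each factor on GRCm38.p6, a rule chosen after the data were seen, gave 14 neighbours, and none passed in limma. Their log2 differences, positive minus negative, lay between -0.33 for 9030622O22Rik, 2.36 kb from Foxa2, and 1.04 (adjusted p = 0.609) for Marco, a macrophage receptor gene next to En1. The neighbours of Nr4a2 were Kcnj3, 1509 kb away at 0.35 (adjusted p = 0.68), and Gpd2, 114 kb away at 0.60 (adjusted p = 0.478). Those of Otx2 were Tmem260 at 0.05 and Exoc5 at -0.21. The opposite-strand transcript of the Otx2 region, Otx2os1, read 3.20, 1.70 and 7.20 in positive cells and 2.59, 23.6 and 4.63 in negative cells and was not tested, being above the filter level on 1 array.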
